A study of Mus musculus with 10 samples.

Results

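Pomt1 and 5 genes that act with it on dystroglycan were followed in the hippocampus of 2 mouse lines. The 6 genes are Pomt1, Pomt2, Pomgnt2, Pomk, Pomgnt1 and Dag1, and every transcript cluster of the array that carries 1 of these symbols was taken. This gave 6 clusters of 22206, 1 for each gene. Pomt1 was chosen by its line difference in these same arrays, where it had passed the threshold of the study in an earlier analysis, and the other 5 were taken for their place in the pathway. The DU6 minus FztDU values of all 6 genes are therefore given as a description, without a p, and a count of calls among them is printed only beside the share over all clusters. The mice were males of DU6, an outbred line under long selection for high body mass that becomes obese, and of FztDU, the outbred line without selection that served as the control. Whole hippocampi of 5 mice per line were measured, each mouse on its own Clariom S Mouse array. The sample labels put the age at 21 to 22 weeks, and the text of the paper is not uniform on it.

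Protein O-mannosylation starts in the endoplasmic reticulum, where POMT1 and POMT2 work as 1 complex and move mannose from a dolichol-linked donor onto serines and threonines of a few proteins. Dystroglycan, the product of Dag1, is the best known acceptor. Its extracellular part carries a long sugar polymer, matriglycan, by which laminins and agrin bind, and its membrane part joins dystrophin inside the cell. In the brain, dystroglycan lies at the endfeet of glia, in the wall of vessels and at inhibitory synapses of pyramidal neurons. In humans, loss of the enzymes causes muscular dystrophies with malformation of brain and eye.

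The sequence around the start of Pomt1 is shown because this gene separates the lines, and that of Pomt2 because its product is the obligate partner. Both are RefSeq windows of 300 bases on GRCm38.p6, written 5′ to 3′ on the strand of the gene, and 5 of the 6 genes had such a window. The Pomt1 window lies on the plus strand at chr2:32236390-32236689 and the Pomt2 window on the minus strand at chr12:87147853-87148152. Capitals mark matches, on either strand, to 6 motifs: GCATGCG from the core of the NRF1 motif, the E-box CACGTG, the ETS motif CCGGAAG, the GC box GGGCGG, the CCAAT box and the TATA box TATAAA.
Pomt1: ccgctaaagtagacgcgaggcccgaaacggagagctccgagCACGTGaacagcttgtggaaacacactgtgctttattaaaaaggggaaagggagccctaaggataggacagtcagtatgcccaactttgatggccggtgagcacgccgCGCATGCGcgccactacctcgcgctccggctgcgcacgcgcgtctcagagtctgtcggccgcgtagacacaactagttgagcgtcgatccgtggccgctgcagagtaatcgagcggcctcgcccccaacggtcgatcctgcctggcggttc
Pomt2: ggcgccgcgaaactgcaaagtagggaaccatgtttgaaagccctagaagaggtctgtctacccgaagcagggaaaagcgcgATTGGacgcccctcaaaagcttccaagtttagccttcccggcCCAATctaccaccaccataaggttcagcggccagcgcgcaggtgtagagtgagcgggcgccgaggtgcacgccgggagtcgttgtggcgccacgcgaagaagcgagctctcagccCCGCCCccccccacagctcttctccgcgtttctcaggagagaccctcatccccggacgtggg
Counted from 1 at the 5′ end, the Pomt1 window held the E-box at position 42 and the NRF1 core at positions 150 and 151, which are 1 palindromic stretch read on both strands. Among 32841 windows of this length, 7.15% held that E-box and 3.58% that NRF1 core. The Pomt2 window held neither. It had the CCAAT box at positions 82 and 124 and the GC box at position 239, which occur in 37.4% and 35.7% of the windows. The ETS motif (8.86% of windows) and the TATA box (13.6%) were in neither window. Pomt1 had 33 CpG sites and Pomt2 had 26, against a median of 7 over all windows. These matches describe the letters of the reference strain, and no binding was measured.

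Pomt1, a catalytic subunit of the mannosyltransferase, had more signal in DU6 mice. In DU6 replicates 1 to 5 its log2 signal was 6.97, 7.32, 7.15, 6.98 and 6.58. The FztDU replicates 1 to 5 had 6.12, 5.64, 6.44, 5.87 and 5.89. No DU6 array overlapped a FztDU array, and the lowest DU6 value lay 0.14 above the highest FztDU value. The line means were 7.00 ± 0.28 (SD, n = 5) and 5.99 ± 0.30 (SD, n = 5), a log2 difference of 1.01 with a standard error of 0.16, or 2.01-fold. Folds are on the scale of the deposited per-array values, which is narrower than that of the line averages the authors deposited beside them, and the step between both scales is not given in the sources used here. The cluster covers chromosome 2 from 32236590 to 32255005 on mm10. In hippocampal tissue as a whole, more cells that transcribe a gene and more RNA per cell cannot be told apart.

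Pomt2, the subunit without which POMT1 has no activity, showed no such gap. Its DU6 values were 6.28, 6.49, 6.21, 6.17 and 6.24, and its FztDU values were 6.36, 6.28, 5.73, 5.92 and 6.58. All DU6 arrays fell inside the FztDU range. The means of 6.28 ± 0.13 (SD, n = 5) and 6.17 ± 0.34 (SD, n = 5) differed by 0.10 on the log2 scale, less than the standard error of 0.15. The FztDU mice were more spread for this subunit than the DU6 mice. FztDU replicate 3, the lowest array for Pomt2, had the highest Pomt1 of its line.

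Pomgnt2 and Pomk encode the enzymes that extend the mannose on the way to matriglycan, the first by adding N-acetylglucosamine and the second by phosphorylating the mannose. Pomgnt2 had 6.46, 6.42, 6.54, 6.68 and 6.74 in DU6 and 6.50, 6.51, 6.80, 6.72 and 6.53 in FztDU. The lines overlapped over most of this range, with a log2 difference of -0.04 (standard error 0.10). Pomk had 6.19, 6.41, 6.63, 6.35 and 6.37 in DU6 and 6.62, 6.43, 6.85, 6.14 and 6.26 in FztDU, a difference of -0.07 (standard error 0.14). Replicate 3 was the highest array for Pomk in both lines, at 6.63 and 6.85.

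Pomgnt1 encodes the Golgi enzyme that starts the other branch, in which N-acetylglucosamine is added to O-mannose without phosphorylation. Its values were 7.27, 6.96, 7.10, 7.13 and 7.37 in DU6 and 7.21, 7.11, 6.88, 7.08 and 7.39 in FztDU. Replicate 5 was the highest in each line, and the means differed by 0.03 (standard error 0.12). Dag1, the acceptor, was the steadiest of the 6 genes. It had 8.97, 9.20, 9.21, 8.94 and 9.11 in DU6 and 9.06, 9.16, 9.23, 8.95 and 9.00 in FztDU. Its means of 9.09 ± 0.13 (SD, n = 5) and 9.08 ± 0.11 (SD, n = 5) differed by 0.01 (standard error 0.10). Levels are not compared between genes, because each probe set has its own response.

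**Figure D1:**
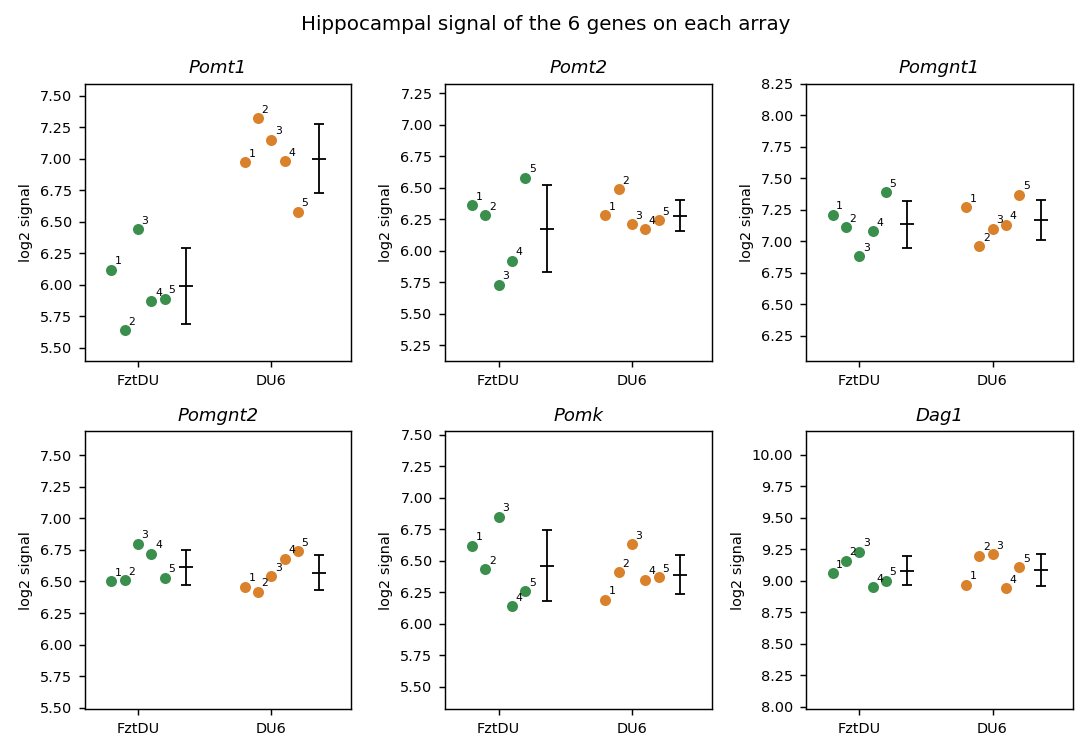
Log2 signal of the 6 genes on each array, with FztDU in green and DU6 in orange; numbers are the replicates, the bars show the mean and SD of 5 mice, and all panels span the same height. Pomt1 runs from 6.58 to 7.32 in DU6 and from 5.64 to 6.44 in FztDU, whereas the lines overlap for the other 5 genes.

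Of the 6 clusters, 1 (Pomt1) passed an adjusted p under 0.05 with a fold over 2 in limma, and it also passed without the fold threshold. Over all 22206 clusters 0.113% passed the first rule and 0.162% the second, and 1.22% had no overlap between the lines. Since this contrast chose Pomt1, nothing is read from its count. The arrays of the lines overlapped for each of the 5 other genes. Their differences ran from -0.07 to 0.10 with a median of 0.01, beside a median of 0.00 over all clusters. No test was made of whether Pomt1 differed more than its partners, because the choice of Pomt1 fixes that difference. Leaving out 1 array in turn moved the difference of Pomt1 between 0.92 and 1.12. Pomt1 then stayed past the threshold only without DU6 replicate 5 or FztDU replicate 3. In the other runs its adjusted p itself was not under 0.05.

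Genes of choroid plexus and of cerebellum were high on some arrays. The mean of 10 choroid plexus markers, centred on all arrays, was 2.08 and 2.02 in DU6 replicates 1 and 5 and 1.65 in FztDU replicate 5, against -1.16 to -0.12 on the other 7. The mean of 8 cerebellar markers was 4.33 in DU6 replicate 2, against -0.78 to -0.03 on the other 9. All 8 markers of hippocampal neurons were measured, with Hpca between 11.98 and 12.44 and Prox1 of dentate granule cells between 8.43 and 9.51. In this list C1ql2 differed by -0.65 between the lines, without overlap, which 1.22% of all clusters also showed. Dsp differed by -0.72 with overlap, and the others lay between -0.22 and 0.17. The mean of the 8 markers was lowest, at -0.65, in DU6 replicate 2.

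Pomt1 was highest in that array with cerebellar genes, at 7.32, and without it the difference was 0.93. The choroid plexus arrays held the lowest DU6 value, 6.58 in replicate 5, beside 6.97 in replicate 1, and 5.89 in FztDU replicate 5. Without these 3 arrays the difference was 1.13, and without these and DU6 replicate 2 it was 1.05, with 2 DU6 mice left. With those arrays left out in any of these ways, 0 of the 6 clusters passed the threshold, with or without its fold. The part of either tissue in the difference was not tested. The means of astrocyte, oligodendrocyte, microglia and endothelial markers overlapped between the lines, and over all marker lists 0 genes had an adjusted p under 0.05 in limma. Without adjustment, 1 was higher (Ly6c1 of endothelium) and 1 lower (C1ql2 of granule cells) at 0.05, beside 2.7% and 3.17% of all clusters.

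**Figure D2:**
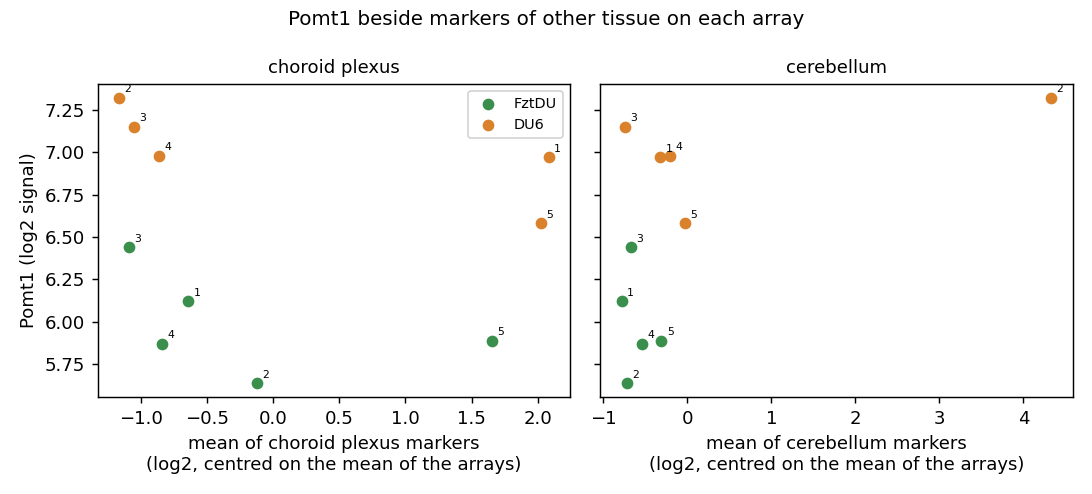
Pomt1 log2 signal (vertical) against the mean log2 level of 10 choroid plexus markers (left) and 8 cerebellar markers (right), each centred on the mean of all arrays; points are arrays, numbered by replicate. DU6 lies above FztDU at low choroid plexus signal and at high signal, where FztDU has only replicate 5. DU6 replicate 2 stands alone in cerebellar markers at 4.33.

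The wider pathway was read from 68 genes in 8 lists drawn up by function, all of which had a cluster. The lists were chosen with earlier results of these data known. A p from them, also that of Srd5a3, is therefore no independent test. In 3 cases that cluster carries another symbol too: Rxylt1 (as Tmem5, with Gm9079), B4gat1 (with Brms1) and Dpm1 (with Adnp). In limma 0 of the 68 clusters passed with the fold threshold and 1 passed without it, Srd5a3, which fell. Before adjustment, 0 of the 68 were higher and 2 lower at p under 0.05, beside 2.7% and 3.17% of all clusters. Of the 68 differences 33 were above and 35 below 0, with a median of -0.01. The second gene under that unadjusted p was Tmem260, and apart from Srd5a3 no cluster of the 68 was free of overlap, beside 1.22% of all clusters that were.

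The mannose donor is made from GDP-mannose and dolichol phosphate, and Srd5a3 encodes a reductase that acts in the making of dolichol. Srd5a3 had 6.52, 6.25, 6.42, 6.54 and 6.60 in DU6 and 7.49, 7.10, 7.29, 7.38 and 7.22 in FztDU. The highest DU6 value was thus below the lowest FztDU value. The means of 6.47 ± 0.14 (SD, n = 5) and 7.30 ± 0.15 (SD, n = 5) differed by -0.83 (95% interval -1.06 to -0.60; limma, adjusted p = 0.00358; exact two-sided permutation p = 0.00794, the lowest possible with 5 against 5). It lies on chromosome 5 from 76140271 to 76155504. Without the 3 choroid plexus arrays the difference was -0.91 and the adjusted p 0.0580 in limma, and without these and DU6 replicate 2 it was -0.83 with an adjusted p of 0.245, on 7 and 6 arrays.

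The other 13 genes of donor supply lay between -0.12 and 0.19. Gmppa, the regulatory subunit for GDP-mannose synthesis, differed by 0.19 (95% interval -0.08 to 0.47). Dolk, which phosphorylates dolichol, differed by 0.12 (-0.07 to 0.31), and Pmm1, a phosphomannomutase, by -0.11 (-0.34 to 0.13). None of the 3 passed the test. The median of the list was 0.05, with 10 of 14 differences above 0, beside 11223 of 22206 over all clusters.

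The other enzymes of the matriglycan chain were close to 0 in difference. Rxylt1, which adds xylose to ribitol phosphate, differed by 0.22 (95% interval -0.08 to 0.51) in the cluster it shares. B4gat1, which adds the glucuronic acid that primes the polymer, differed by 0.13 (-0.15 to 0.40), again in a shared cluster. Large2, a polymerase of matriglycan listed as Gyltl1b, differed by 0.10 (-0.33 to 0.53), and B3galnt2, which adds N-acetylgalactosamine, by -0.03 (-0.27 to 0.20). None of the 8 clusters passed at an adjusted or an unadjusted p of 0.05.

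Other O-mannosyltransferases act on other proteins, the Tmtc enzymes on cadherins and Tmem260 on plexins and growth factor receptors. Tmem260 had 5.16, 5.44, 4.89, 4.82 and 5.11 in DU6 and 5.11, 5.93, 5.33, 5.66 and 5.22 in FztDU. The lines overlapped, and the difference of -0.37 did not pass (limma, unadjusted p = 0.0487, adjusted p = 0.845; exact two-sided permutation test, p = 0.111). Tmtc1, Tmtc2 and Tmtc4 differed by 0.24, 0.26 and 0.20, each with an interval that includes 0. Tmtc2 and Tmtc4 were highest, at 7.36 and 8.57, in DU6 replicate 2, the array with cerebellar genes.

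Brain O-mannose glycans can also be branched and capped. Mgat5b, the brain enzyme of this branching, differed by -0.19 (95% interval -0.44 to 0.05). B3gat1 and Chst10, which build the HNK-1 epitope, differed by -0.16 and 0.04, and Fut9, which makes Lewis X, by 0.09. None passed the test. The POMT acceptors Kiaa1549 (D630045J12Rik) and Suco, known as such from human cells, differed by -0.13 (-0.33 to 0.06) and -0.01 (-0.27 to 0.25).

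The partners of dystroglycan on either side of the membrane gave no called difference. In the dystrophin complex, 17 clusters had a median of -0.01, and the extremes were Sntb2, a syntrophin, at -0.40 (95% interval -0.82 to 0.02) and Sgca, a sarcoglycan, at 0.24 (-0.13 to 0.61). Sgcb, another sarcoglycan, differed by 0.14. Among 15 known or proposed ligands of matriglycan, 12 differences were below 0 and the median was -0.07. Over the whole array 10983 of 22206 differences were below 0, and no ligand had an unadjusted p under 0.05 in limma. Lama2, the laminin chain of muscle and brain vessels, differed by -0.22 (-0.46 to 0.03), and Slit3 and Slit1, axon guidance cues, by -0.18 each. The endfoot channels Kcnj10 and Aqp4, which dystroglycan helps to anchor, differed by -0.17 (-0.48 to 0.15) and 0.10 (-0.29 to 0.50).

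**Figure D3:**
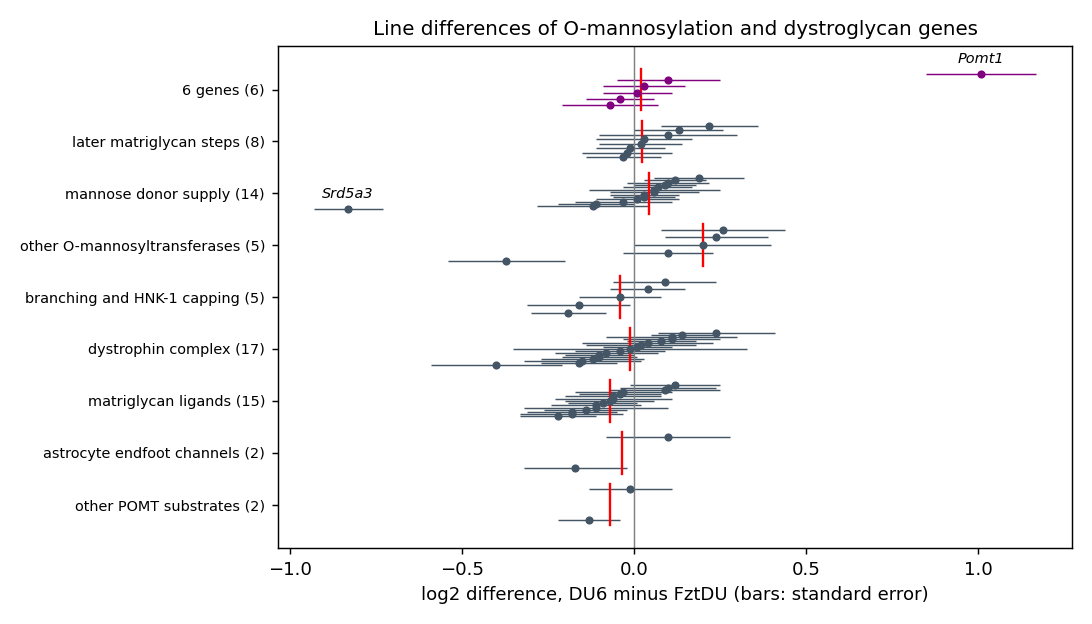
Log2 difference DU6 minus FztDU of each cluster (points, bars are standard errors) for the 6 genes and 8 lists of related genes, with the number of clusters in brackets and the list median as a red line. Pomt1 at 1.01 and Srd5a3 at -0.83 lie apart, and the other points lie between -0.40 and 0.26.

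The genes around Pomt1 on chromosome 2 had differences of either sign. Within 500 kb on either side lie 29 other clusters, 9 before and 20 after Pomt1, with a median difference of -0.06. In limma 0 of them were called and 0 passed an adjusted p of 0.05, and before adjustment 1 was higher and 2 lower at p under 0.05, beside 2.7% and 3.17% of all clusters. The next cluster after Pomt1 is Uck1, a uridine-cytidine kinase on the opposite strand, whose end overlaps that of Pomt1 by 4 bases. It differed by -0.03 (95% interval -0.23 to 0.18). Swi5, a recombination factor, and Golga2, a protein of the Golgi matrix, followed with -0.03 and 0.06.

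On the other side, Prrc2b, which encodes a proline-rich protein, ends 2052 bases before Pomt1 begins and is read from the same strand. Its DU6 values were 8.16, 8.27, 8.51, 8.21 and 8.46, and its FztDU values were 8.90, 8.72, 8.98, 8.86 and 8.63. Here DU6 lay below FztDU, so the difference had the sign opposite to that of Pomt1. The lines did not overlap, which 1.22% of all clusters also showed. The difference of -0.50 (95% interval -0.73 to -0.26) did not pass the adjusted test (limma, p = 0.0005, adjusted p = 0.122; exact two-sided permutation test, p = 0.00794). That permutation p is the lowest possible with 5 against 5 arrays. Plpp7 and Fam78a, farther out, differed by -0.11 and -0.07.

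Lcn2, an iron-siderophore binding protein named after its values were seen, had the largest difference of the window, 1.49, with wide spread in DU6 (SD 1.40, n = 5). It was highest in DU6 replicate 5, at 6.82, which is 1 of the choroid plexus arrays, and the lines overlapped (adjusted p = 0.657 in limma). The choroid plexus arrays DU6 replicate 1 and FztDU replicate 5 had 4.21 and 2.68, the latter the lowest of all arrays. The difference of Lcn2 was 0.97 without DU6 replicate 5, 0.83 without the 3 choroid plexus arrays and 0.21 without these and DU6 replicate 2. With the choroid plexus covariate it was 1.41. Naif1, also named afterwards, differed by -0.25 (adjusted p = 0.794 in limma). Dpm2, a subunit of the mannose donor synthase, lies in the same window and differed by 0.01 (-0.24 to 0.26).

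**Figure D4:**
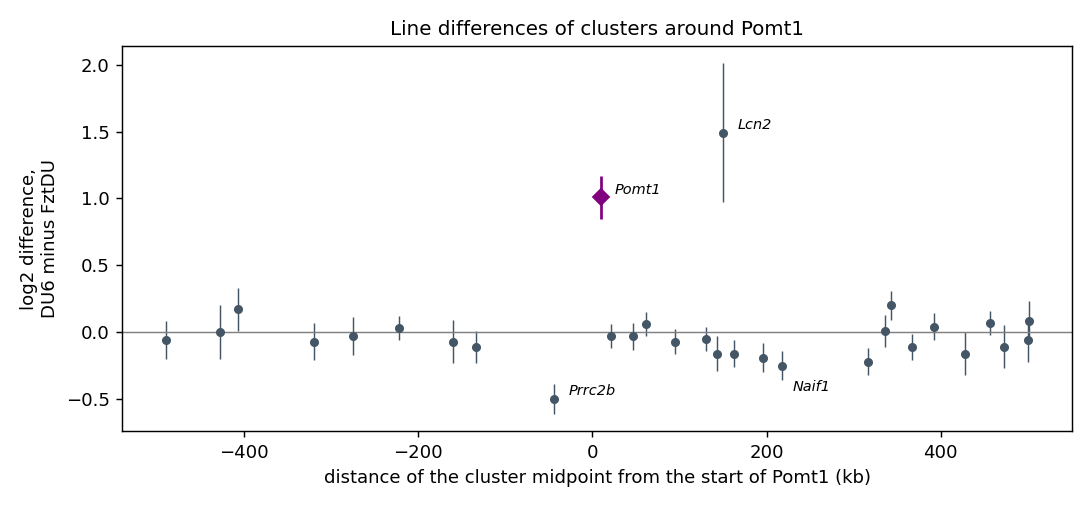
Log2 difference DU6 minus FztDU (bars are standard errors) of the 29 clusters within 500 kb of Pomt1, by distance of the midpoint from the start of Pomt1 in kb; Pomt1 is the purple diamond. Pomt1 at 1.01 stands beside Prrc2b at -0.50, and Lcn2 at 1.49 has the widest error.

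Across the 10 arrays, the signal most like that of Pomt1 was S100a10, a partner of annexin A2, with a Pearson r of 0.981. Utp18, Zdhhc14, Mgat2 and Ndufs1 followed, with r from 0.927 to 0.940. Their line differences ran from 0.13 to 0.90, and since the lines form 2 separate groups in Pomt1 these r values mix the line difference with the spread within lines. With each line centred on its own mean, the closest were Ythdf3 (r = 0.978), Fbxo21 (0.929), Pnpla3 (0.925), Sephs2 (0.915) and Lysmd4 (0.914), and S100a10 had 0.913. These values describe 10 arrays that differ in choroid plexus and cerebellar markers, whose part in them was not tested. They carry no test because each was picked as the highest of all clusters. The partners were not picked by likeness. Their r within lines was -0.697 for Pomgnt1, -0.246 for Pomt2, -0.0682 for Pomgnt2, 0.401 for Dag1 and 0.608 for Pomk.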

How the data were processed

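Hippocampal RNA of 5 DU6 and 5 FztDU mice was hybridized to Clariom S Mouse arrays. According to the methods, the authors used the Transcriptome Analysis Console with SST-RMA and mm10 annotation. They deposited normalized log2 values for 22206 transcript clusters, used here unchanged; array medians were 5.47 to 5.52. Symbols and positions came from the deposited comparison table, whose line averages, fold changes, p and false discovery rates were not used; its averages lie on a wider scale, and whether both went through SST-RMA is not given in the sources used here. The labels give no batch or scan date, and precision is limited by how many arrays there are.

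With limma 3.58.1 in R 4.3.3, line differences were fitted over every cluster, unfiltered (lmFit, eBayes, two-sided tests, Benjamini-Hochberg adjustment); intervals are 95%. The fit was tested on simulated data. Exact tests used all 252 splits of the arrays. Plots and promoter searches used Python 3.11.15, the plots with matplotlib 3.10.9. The 6 genes and all lists were chosen with earlier results of these data known. Named were the 6 genes, up to 4 genes per list with the smallest p and any that passed, the 3 nearest clusters with a symbol on each side of Pomt1, and the 5 most correlated clusters with and without line centring. Some genes of the lists that this rule names are not reported here. Alternatives were quantile or median normalization, low-signal filters (25% or 50%), trend and robust eBayes, array weights, a block on the replicate number, a choroid plexus covariate, the threshold without a fold, and arrays left out.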

Additional observations from a re-analysis of the deposited data

Results flagged for a closer look

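Among 80 sets of 5 arrays (1 gene in 1 line), 2 had an array far from the other 4 by Dixon's criterion, and chance alone flags about 1 in 20 sets. Dolk had 7.34 in FztDU replicate 5, an array with high choroid plexus genes, against 7.17 to 7.18 in the other 4 mice. Slit3 had 7.39 in DU6 replicate 2, the array with high cerebellar genes, against 7.78 to 7.88. Neither the 6 genes nor Srd5a3 nor Prrc2b had such an array. The part of choroid plexus or cerebellar RNA in these 2 values was not tested.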

How the results depend on the processing

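Under 20 alternatives the difference of Pomt1 ran from 0.92 to 1.13, and each of the other 5 genes moved by less than its SD within lines. The number of the 6 clusters past the threshold was 1 under 5 alternatives other than single arrays, and 0 with arrays centred on their medians or array weights (fold just under 2, adjusted p still under 0.05), with the replicate block, and without the 3 choroid plexus arrays or these and DU6 replicate 2. Leaving out single arrays, it ranged from 0 to 1, with 1 only without DU6 replicate 5 or FztDU replicate 3. The same held at an adjusted p under 0.05 with no fold threshold. Without the fold threshold, 1 of the 68 related clusters passed (Srd5a3). At an unadjusted p under 0.05, 1 of the 68 passed with either low-signal filter or without the choroid plexus arrays, and 1 to 3 when single arrays were left out. Srd5a3 passed under 18 of 20 alternatives and lost the call in the 2 without the choroid plexus arrays. Prrc2b passed under 1, eBayes with trend and robust (adjusted p = 0.0423). For the replicate block, 3 of 5 same-numbered array pairs had correlated deviations over 0.1 (mean r 0.104, against -0.0258 for other numbers), and 2 of 5 DU6 arrays were closest to their own number. With the block 20 clusters were called in all, against 25. The 2 low-signal filters test fewer clusters, and other causes were not tested.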
